A study of Mus musculus with 28 samples.

Results

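The matrix metalloproteinases (MMPs) described here are 10 genes, *Mmp2*, *Mmp3*, *Mmp8*, *Mmp9*, *Mmp11*, *Mmp12*, *Mmp13*, *Mmp14*, *Mmp19* and *Mmp23*. They were taken by symbol from the 56980 rows of a bulk RNA-seq count table and from the 32285 genes of 3 single-cell matrices, and all 10 were found in both. The series follows the outflow vein of the mouse carotid-jugular arteriovenous fistula (AVF), in which the end of the jugular vein is sewn to the side of the carotid artery. Male and female C57BL/6 mice were used, and every mouse, controls included, had a 5/6 nephrectomy before AVF creation, so all groups share it. The age of the mice is not given in the sources used here. Bulk libraries came from single vessels, namely 7 contralateral jugular veins (5 female, 2 male), 8 early AVFs of nominal day 3 (3 female, 5 male), 5 mid AVFs of nominal day 10 (3 female, 2 male) and 5 late AVFs of nominal day 21 (3 female, 2 male). The 3 single-cell libraries, 1 of contralateral veins, 1 of early and 1 of late AVFs, were each a pool of vessels of both sexes. They have no replicate and no day in the labels. The study reports harvest days that varied around the nominal days within each bulk AVF group. Its early and late single-cell AVFs were harvested later on average than the bulk AVFs of the same name.

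MMPs are zinc-dependent endopeptidases that are made as inactive proenzymes and cut extracellular matrix proteins once a propeptide has been removed. Collagenases (*Mmp8*, *Mmp13*) cut fibrillar collagen, gelatinases (*Mmp2*, *Mmp9*) digest denatured collagen and basement membrane, and stromelysin-1 (*Mmp3*) cuts proteoglycans and also activates other proenzymes. *Mmp12* is the macrophage elastase, *Mmp14* is bound to the cell membrane and activates the proenzyme of *Mmp2*, and tissue inhibitors of metalloproteinases (TIMPs) block the active enzymes. In a vein exposed to arterial flow, this family is known for its part in wall remodeling. A transcript level, which is what was measured here, says nothing of how much proenzyme was activated.

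In GENCODE M21 on GRCm38, *Mmp13* (chr9:7272514-7283331), *Mmp12* (chr9:7344381-7369499), *Mmp3* (chr9:7445822-7455975) and *Mmp8* (chr9:7558456-7568485) lie in this order on the + strand of 1 stretch of chromosome 9. The other 6 members are scattered, with *Mmp2* at chr8:92827291-92853420 (+), *Mmp9* at chr2:164940780-164955850 (+), *Mmp11* at chr10:75923222-75936496 (-), *Mmp19* at chr10:128790910-128800824 (+), *Mmp14* at chr14:54431612-54445364 (+) and *Mmp23* at chr4:155650655-155653384 (-). Promoter sequences from RefSeq (GRCm38.p6) were matched by symbol for 7 of the 10 members. The 4 genes of the chromosome 9 stretch are shown because they include the members that changed most and in opposite directions. Each run is the 250 bases before an annotated start, 5′ to 3′ on the gene strand, with matches to the activator protein 1 (AP-1) letters TGANTCA in capitals. The runs span chr9:7272264-7272513 for *Mmp13*, chr9:7344147-7344396 and chr9:7347124-7347373 for the upstream and the downstream start of *Mmp12* (the second lies inside the annotated gene), chr9:7445572-7445821 for *Mmp3* and chr9:7558179-7558428 for *Mmp8*.
Mmp13: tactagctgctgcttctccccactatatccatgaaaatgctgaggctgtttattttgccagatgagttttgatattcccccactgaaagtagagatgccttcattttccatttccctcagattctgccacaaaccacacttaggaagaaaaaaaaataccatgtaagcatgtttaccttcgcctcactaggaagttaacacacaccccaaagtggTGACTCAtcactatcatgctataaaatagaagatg
Mmp12, upstream start: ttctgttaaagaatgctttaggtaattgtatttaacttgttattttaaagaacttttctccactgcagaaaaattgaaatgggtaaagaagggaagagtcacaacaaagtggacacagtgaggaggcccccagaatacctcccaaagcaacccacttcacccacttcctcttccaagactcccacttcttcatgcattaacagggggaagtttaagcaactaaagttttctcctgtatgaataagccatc
Mmp12, downstream start: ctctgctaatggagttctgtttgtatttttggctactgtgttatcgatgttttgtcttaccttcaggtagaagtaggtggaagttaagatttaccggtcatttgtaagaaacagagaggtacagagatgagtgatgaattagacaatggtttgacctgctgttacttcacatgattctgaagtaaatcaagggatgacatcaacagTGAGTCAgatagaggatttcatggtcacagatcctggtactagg
Mmp3: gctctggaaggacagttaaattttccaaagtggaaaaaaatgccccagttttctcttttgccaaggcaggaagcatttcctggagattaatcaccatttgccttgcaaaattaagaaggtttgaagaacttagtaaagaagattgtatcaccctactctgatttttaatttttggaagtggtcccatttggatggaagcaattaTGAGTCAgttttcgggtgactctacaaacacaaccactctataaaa
Mmp8: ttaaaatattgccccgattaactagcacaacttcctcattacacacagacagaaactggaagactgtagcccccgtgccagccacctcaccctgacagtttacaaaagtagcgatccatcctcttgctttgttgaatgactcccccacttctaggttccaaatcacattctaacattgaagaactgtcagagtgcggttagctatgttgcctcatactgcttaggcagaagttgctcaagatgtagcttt
TGANTCA reads the same on both strands and was present in 6.75% of 32851 RefSeq promoters over the same 250 bases. It began 35 bases before the start of *Mmp13*, 46 bases before that of *Mmp3* and 44 bases before the downstream start of *Mmp12*. No match lay in the windows of *Mmp8*, the upstream start of *Mmp12*, *Mmp11*, *Mmp14* or *Mmp23*. The letters AGGAAG, the core read by factors of the ETS family, were searched on both strands and were present in 29.5% of promoters. *Mmp3*, *Mmp8*, the upstream start of *Mmp12* and *Mmp14* held 1 match each, *Mmp13* held 2, and the windows of *Mmp11*, *Mmp23* and the downstream start of *Mmp12* held 0. These matches are descriptions of letters, not of bound sites, and *Mmp3*, which fell early, shared the AP-1 letters with *Mmp13*, which rose.

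Total counts of the bulk libraries ranged from 20254173 to 67457501 with a median of 27994164. Bulk levels are given as CPM, the depth-scaled read count, relative to reads on the 12673 genes passing a mean normalized count of 100. All 10 members passed, although *Mmp8* and *Mmp13* did so only through the AVFs. *Mmp12* passed in the veins alone with a mean of 118, but vein 632 held 647 reads and no other vein over 59. The libraries differed in cell makeup, and in bulk tissue fewer cells of a type and less RNA per cell cannot be told apart. Summed CPM of 6 smooth muscle markers ranged from 13352 to 27138 in contralateral veins and from 1254 to 4022 across all AVFs, and 7 mono/macro markers from 1728 to 6506 and from 6494 to 30245. Early AVFs 5, 6 and 7 had lower summed fibroblast markers (10622, 5488 and 3368 CPM) than any contralateral vein (15519 to 41721). All 4 skeletal muscle markers were higher in AVFs at every time, with sums up to 7331 CPM against at most 30.9 CPM in contralateral veins. The part of these differences in the results was not tested. Fits without early AVFs 5, 6 and 7 are given, a choice made after the data were seen. They leave the smooth muscle, mono/macro and skeletal muscle differences in place, so they cannot decide whether those contribute.

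Differentially expressed genes (DEGs) were called at an adjusted p under 0.01 and a log2 fold change of at least 1 in edgeR's quasi-likelihood test. In early AVFs 6 of the 10 members were DEGs against contralateral veins, 5 higher (*Mmp8*, *Mmp12*, *Mmp13*, *Mmp14*, *Mmp19*) and 1 lower (*Mmp3*), where 12.6% of all genes tested were called (6.17% higher, 6.45% lower). In mid AVFs 4 members were higher (*Mmp8*, *Mmp12*, *Mmp13*, *Mmp14*) and none lower, against 6.05% of all genes called and 2.74% called higher. The same 4 were higher in late AVFs, against 5.33% of all genes called and 2.49% called higher. Ranges lay apart, with every AVF above every vein, for 3 members early (*Mmp8*, *Mmp12*, *Mmp19*), 5 mid (*Mmp8*, *Mmp12*, *Mmp13*, *Mmp14*, *Mmp19*) and 4 late (*Mmp12*, *Mmp13*, *Mmp14*, *Mmp19*), against 4.47%, 7.32% and 6.25% of all genes. The median log2 fold change over the 10 members was 1.34 early, 1.55 mid and 1.69 late, beside -0.01, -0.10 and -0.09 over all genes. *Mmp8* and *Mmp13* passed the filter on low counts only through the AVFs, and *Mmp12* passed it in the veins only through vein 632. The counts called higher, the separated ranges and the medians are therefore in part fixed by the filter. The 3 comparisons share the contralateral veins, so they do not stand for independent results. Whichever 1 library was left out, 4 or 5 members were called early and 4 or 5 mid. The late count ranged from 1 (without late AVF 19) to 5 and was 2 without late AVF 16. With early AVFs 5, 6 and 7 left out, 5 members were called early, 4 mid and 3 late.

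**Figure D1:**
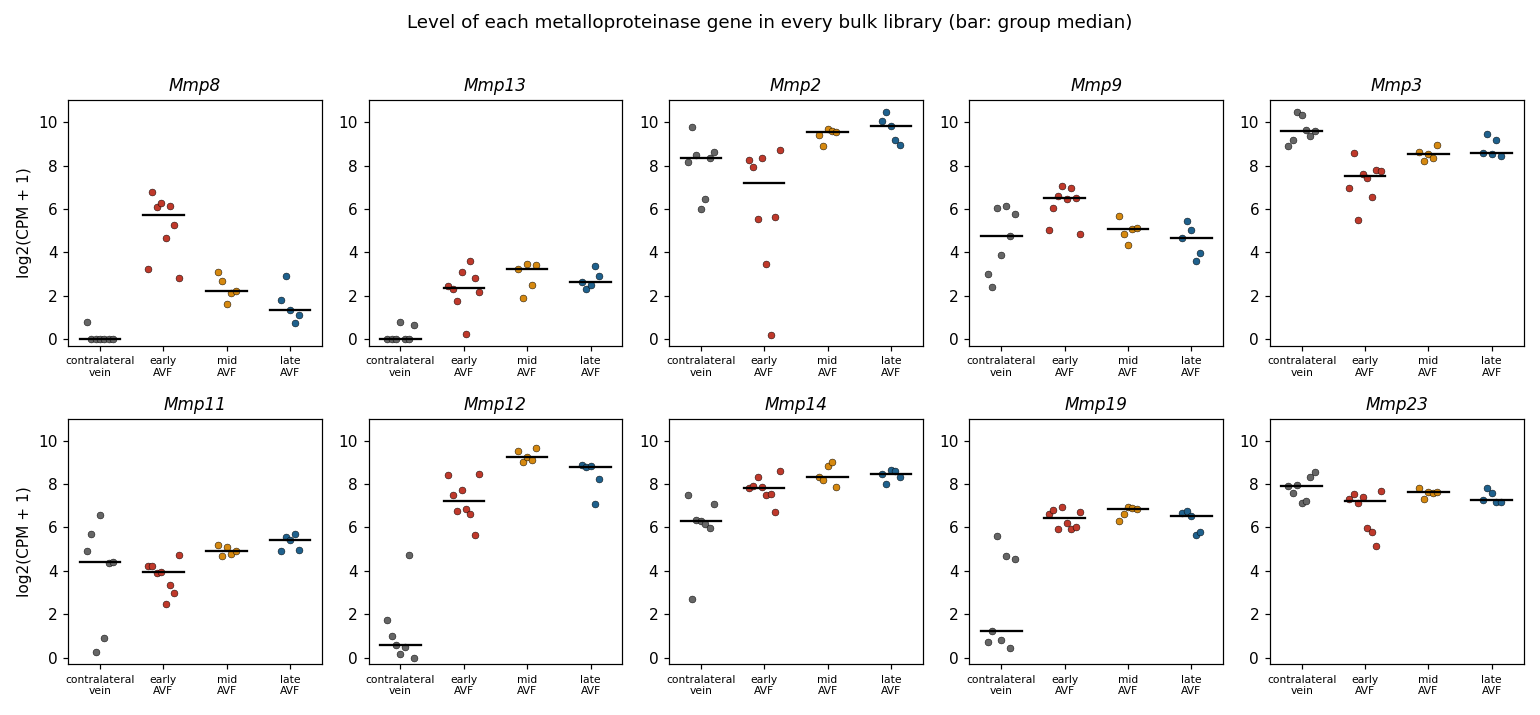
Level of each MMP gene in every bulk library as log2(CPM + 1), with 7 contralateral veins, 8 early, 5 mid and 5 late AVFs as points and group medians as bars. *Mmp8* peaks in early AVFs (median 51.5 CPM), *Mmp12* in mid AVFs (median 613 CPM), and *Mmp3* is the member with the highest median in contralateral veins (772 CPM).

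The collagenases had few or no reads in contralateral veins and were higher in AVFs at every time. *Mmp8*, the neutrophil collagenase, had no read in 6 of the 7 veins and 0.712 CPM in vein 27. In early AVFs 1, 2, 3, 4, 5, 6, 7 and 10 it reached 8.24, 109, 66.2, 75.3, 24.5, 68.8, 36.9 and 6.11 CPM. Every early AVF lay above every vein, and early AVFs 1 and 10 stood below the other 6. The mid AVFs held 2.05 to 7.63 CPM and the late AVFs 0.657 to 6.41 CPM, so the mid range stayed above the veins while late AVF 23 (0.657 CPM) fell below vein 27. The log2 fold change against contralateral veins was 8.84 ± 1.25 (SE) early (adjusted p = 8.44e-06), 5.35 ± 1.12 mid (adjusted p = 0.00179) and 4.49 ± 1.09 late (adjusted p = 0.00697). These values rest on 18 reads in vein 27, and the other 6 veins hold none. With all 7 veins the mean was 0.102 CPM, against 49.4 CPM in early AVFs. Against those 6 veins alone, with a floor of 3 reads, *Mmp8* was at least 2369-fold higher early, 211-fold mid and 117-fold late. As the only vein with reads is left out, these bounds are not minimums for all 7 veins. The late call was lost (adjusted p up to 0.0313) when any of 9 libraries was left out, contralateral veins 34, 35, 632 and 633, early AVFs 2 and 4 and late AVFs 16, 17 and 19, and also without early AVFs 5, 6 and 7 (adjusted p = 0.0129).

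Neutrophil markers moved with *Mmp8*. Summed CPM of the 6 neutrophil markers (*S100a8*, *S100a9*, *Csf3r*, *Cxcr2*, *Retnlg*, *Ly6g*) ranged from 0.0783 to 108 in veins, where *Ly6g* had no read, from 213 to 4330 in early AVFs, from 114 to 330 in mid AVFs and from 99.3 to 218 in late AVFs. Of the 5 markers tested, 5 were higher early, 2 mid and 2 late. Early AVFs 1 and 10, which were lowest for *Mmp8*, were also the lowest of the early AVFs for this sum, at 213 and 330 CPM. Early AVF 6 held the highest sum, 4330 CPM, with a *Mmp8* level below those of early AVFs 2 and 4. The part of cell makeup in the change of *Mmp8* was not tested.

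**Figure D2:**
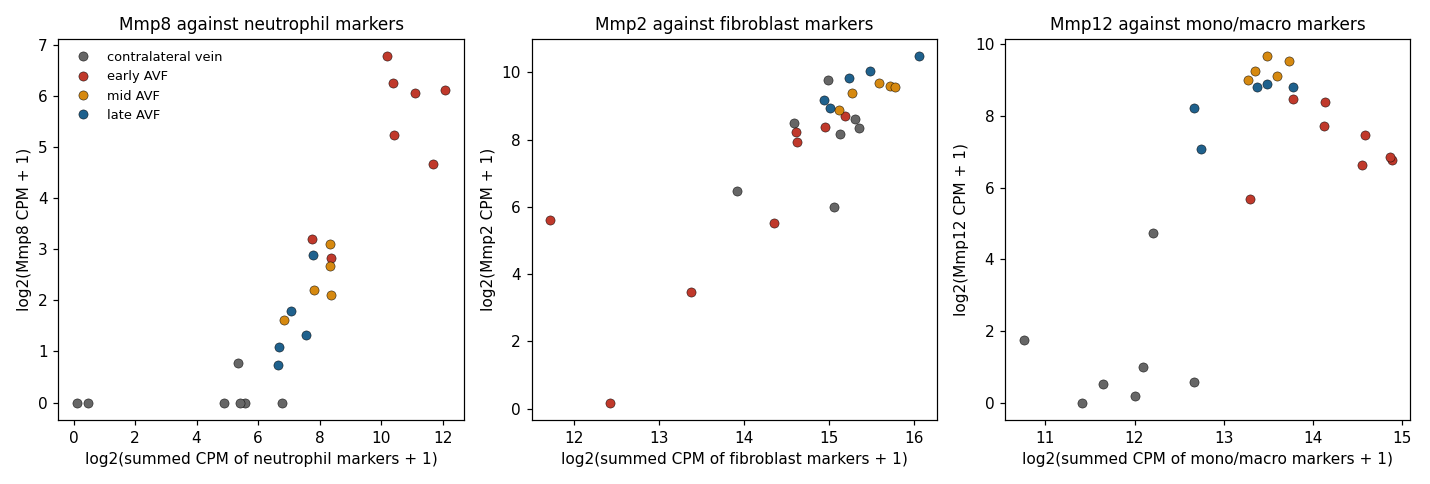
MMP level against the summed CPM of markers of 1 cell type in each of the 25 bulk libraries, both as log2(value + 1), for *Mmp8* and neutrophil markers, *Mmp2* and fibroblast markers, and *Mmp12* and mono/macro markers. Early AVFs 1 and 10 lie with the mid AVFs in the *Mmp8* panel, early AVF 6 is the lowest point in the *Mmp2* panel (0.136 CPM), and mid AVFs have the highest *Mmp12* at mono/macro sums below those of most early AVFs.

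*Mmp13*, the main interstitial collagenase of the mouse, stayed low throughout. It had no read in 5 of 7 veins and 0.725 and 0.552 CPM in veins 34 and 633. Early AVFs ranged from 0.176 to 10.9 CPM (median 4.20), mid AVFs from 2.76 to 10.1 CPM (median 8.46) and late AVFs from 4.03 to 9.22 CPM (median 5.26). Early AVF 5, with 9 reads, was the only AVF inside the range of the veins. *Mmp13* rose by log2 4.70 ± 1.12 early (adjusted p = 0.00295), 5.25 ± 1.18 mid (adjusted p = 0.0035) and 4.98 ± 1.17 late (adjusted p = 0.00558). The reads of the control group lie in veins 34 and 633, 16 in each, and the 3 values were 5.62, 6.16 and 5.89 without vein 34 and 5.30, 5.84 and 5.58 without vein 633. Leaving out late AVF 16, 19, 23 or 24 ended the late call (adjusted p up to 0.0132).

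The gelatinases did not pass the thresholds in any comparison. *Mmp2*, gelatinase A, was measured at 287, 870, 358, 63.0, 87.5, 326 and 390 CPM in veins 27, 28, 31, 34, 35, 632 and 633. In early AVFs it split widely, with 301, 240, 328 and 418 CPM in AVFs 1, 2, 4 and 10 and 44.9, 10.0, 0.136 and 47.8 CPM in AVFs 3, 5, 6 and 7. Mid AVFs held 470 to 814 CPM and late AVFs 486 to 1425 CPM, all above every early AVF. The log2 fold change against veins was -0.97 ± 0.74 early (95% interval -2.51 to 0.57, adjusted p = 0.384), 1.03 ± 0.83 mid (adjusted p = 0.477) and 1.39 ± 0.83 late (adjusted p = 0.318). Late against early AVFs it was 2.35 ± 0.81 (adjusted p = 0.0826), with ranges that did not overlap, as for 7.16% of all genes tested in that direction. Early AVF 6 held 5 *Mmp2* reads in 53097813, and its summed fibroblast markers (5488 CPM) were the second lowest of all libraries. The 4 early AVFs low in *Mmp2* were also those with the highest summed platelet markers (2598 to 12694 CPM, against 381 to 1144 CPM in the other 4), and the part of either in *Mmp2* was not tested.

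*Mmp9*, gelatinase B of neutrophils and macrophages, ranged from 4.31 to 69.8 CPM in veins (median 25.9), from 28.1 to 131 CPM in early AVFs (median 88.6), from 19.3 to 49.4 CPM in mid AVFs and from 11.3 to 42.7 CPM in late AVFs. The groups overlapped at every time. The log2 fold change was 1.25 ± 0.50 early (adjusted p = 0.0742), -0.08 ± 0.56 mid and -0.46 ± 0.56 late (95% interval -1.62 to 0.71), and late against early it was -1.71 ± 0.58 (adjusted p = 0.0776).

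*Mmp3* (stromelysin-1) had the highest level per length in contralateral veins and was the only member called lower. The veins 27, 28, 31, 34, 35, 632 and 633 held 483, 573, 1414, 1294, 803, 665 and 772 CPM. In early AVFs 1, 2, 3, 4, 5, 6, 7 and 10 it was 124, 376, 44.3, 196, 170, 93.9, 219 and 216 CPM, so every early AVF lay below every vein, as for 2.34% of all genes tested. *Mmp3* dropped by 2.25 ± 0.32 on the log2 scale early (adjusted p = 1.04e-05), and the size stayed between -2.45 and -2.04 whichever library was left out. Without early AVFs 5, 6 and 7 it was -2.11 (adjusted p = 0.00042). Summed fibroblast markers overlapped between early AVFs (3368 to 37240 CPM) and veins, with 2 of 6 markers lower, and the part of cell makeup in the change of *Mmp3* was not tested. Mid AVFs held 296 to 491 CPM and late AVFs 349 to 702 CPM, and both ranges overlapped those of the early AVFs and of the veins. The difference from veins was -1.19 ± 0.37 mid (adjusted p = 0.033) and -0.85 ± 0.36 late (adjusted p = 0.139), neither past the threshold. Late against early AVFs, *Mmp3* differed by 1.40 ± 0.34 (adjusted p = 0.0105), just outside the threshold.

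*Mmp11* (stromelysin-3), which is activated inside the cell by furin, ranged among the veins from 0.175 CPM in vein 31 and 0.876 CPM in vein 35 to 93.5 CPM in vein 34. Early AVFs held 4.53 to 25.4 CPM, mid AVFs 24.95 to 35.5 CPM and late AVFs 29.5 to 51.0 CPM. It passed no threshold against veins (log2 fold change -1.17 ± 0.67, -0.05 ± 0.75 and 0.37 ± 0.75). All late AVFs lay above all early AVFs, at 1.54 ± 0.72 (adjusted p = 0.279).

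*Mmp12*, the macrophage elastase, was called higher at all 3 times. Veins 27, 28, 31, 34, 35 and 633 held 2.33, 0.999, 0.482, 0.136, 0.421 and 0 CPM, and vein 632 held 25.3 CPM. Early AVFs 1, 2, 3, 4, 5, 6, 7 and 10 held 336, 177, 107, 208, 115, 97.9, 49.98 and 353 CPM. Mid AVFs 9, 12, 13, 14 and 15 held 734, 509, 613, 548 and 811 CPM, and late AVFs 16, 17, 19, 23 and 24 held 473, 444, 449, 134 and 298 CPM. Every AVF lay above every vein, and every mid AVF above every early and every late AVF (3.31% of all genes lay above in mid against early AVFs and 1.06% below in late against mid AVFs). *Mmp12* rose by log2 5.40 ± 0.96 early (adjusted p = 0.000152), 7.24 ± 1.07 mid (adjusted p = 3.82e-05) and 6.40 ± 1.03 late (adjusted p = 0.000156). Vein 632 alone set the size of these values, which were 7.95, 9.79 and 8.95 without it, all still called. Mid against early AVFs the log2 difference was 1.83 ± 0.84 (adjusted p = 0.33) and late against mid -0.84 ± 0.95 (adjusted p = 1.00), so the peak at mid is a separation of ranges that the test across genes did not call. Summed mono/macro markers were highest in early AVFs (median 20995 CPM) rather than mid AVFs (median 11466 CPM), so *Mmp12* and this sum peaked at different times. The part of cell makeup in the change of *Mmp12* was not tested.

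*Mmp14*, the membrane-type enzyme that activates the proenzyme of *Mmp2*, was 179, 5.56, 79.9, 78.0, 69.3, 61.3 and 133 CPM in veins 27, 28, 31, 34, 35, 632 and 633. Early AVFs held 102 to 390 CPM (median 225), mid AVFs 232 to 516 CPM (median 317) and late AVFs 253 to 406 CPM (median 350). The mid and late AVFs lay above every vein, while early AVF 7 (102 CPM) overlapped the upper veins. *Mmp14* rose by log2 1.43 ± 0.39 early (adjusted p = 0.00912), 2.06 ± 0.43 mid (adjusted p = 0.00185) and 1.99 ± 0.43 late (adjusted p = 0.00304). The early call is marginal, being lost with sex as a covariate (adjusted p = 0.0153) and in 18 of the 25 fits that left out 1 library.

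*Mmp19*, a secreted enzyme that acts on basement membrane proteins, was 22.6, 24.9 and 47.4 CPM in veins 633, 35 and 31 and 0.352 to 1.31 CPM in the other 4 veins. Early AVFs held 60.2 to 123 CPM, mid AVFs 77.8 to 120 CPM and late AVFs 48.6 to 108 CPM, so all 18 AVFs lay above all 7 veins. The log2 fold change was 2.63 ± 0.73 early (adjusted p = 0.00958), 2.91 ± 0.78 mid (adjusted p = 0.0133) and 2.52 ± 0.77 late (adjusted p = 0.0331), of which only the early value passed. That call was lost with sex as a covariate (adjusted p = 0.0125), in 23 of the 25 fits that left out 1 library and without early AVFs 5, 6 and 7 (adjusted p = 0.0207). Without vein 31 it was kept at 3.35 (adjusted p = 0.00171), and all 3 times were then called.

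*Mmp23*, which lacks the hemopexin domain of most other MMPs, passed no threshold. It ranged from 138 to 378 CPM in veins, from 34.3 to 207 CPM in early AVFs, from 159 to 223 CPM in mid AVFs and from 143 to 226 CPM in late AVFs. Against veins the log2 fold change was -0.91 ± 0.31 early (adjusted p = 0.0321), -0.29 ± 0.35 mid and -0.46 ± 0.35 late (95% interval -1.19 to 0.27).

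**Figure D3:**
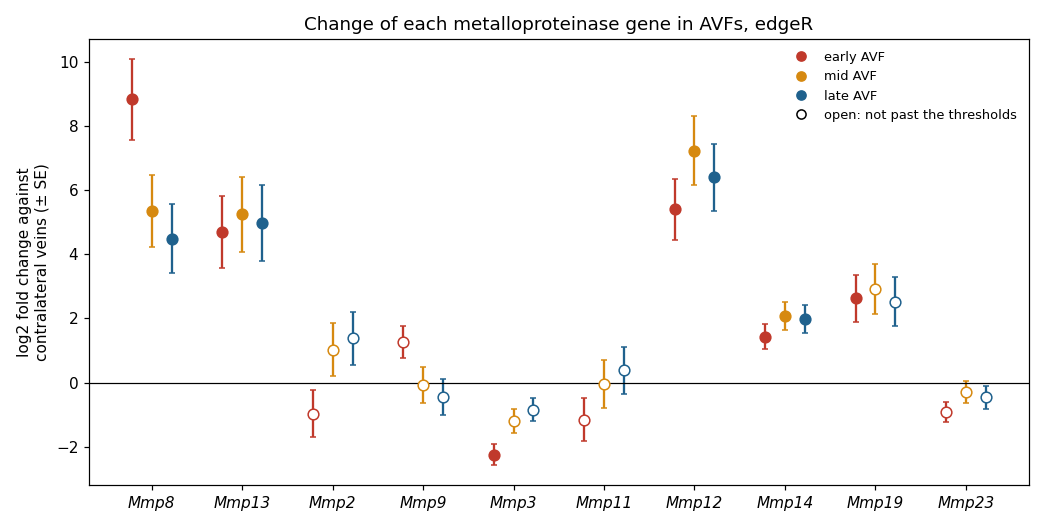
Log2 fold change of each MMP gene in early, mid and late AVFs against contralateral veins, with standard errors derived from edgeR's test. Filled points passed an adjusted p of 0.01 and a log2 fold change of 1. *Mmp8* has its highest value early (8.84), *Mmp12* at mid (7.24), and *Mmp3* is the only filled point below 0 (-2.25).

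Between AVF times, none of the members was called. For mid against early AVFs 0.00789% of all genes were called, for late against early 3.01% and for late against mid 0%. At an unadjusted p under 0.05, edgeR gave 5 members for mid against early (*Mmp2*, *Mmp3*, *Mmp8*, *Mmp9*, *Mmp12*) and 5 for late against early (*Mmp2*, *Mmp3*, *Mmp8*, *Mmp9*, *Mmp11*), and none for late against mid, where 12.7%, 15.9% and 0.308% of all genes tested passed that mark. The likelihood ratio test of edgeR called *Mmp3* and *Mmp8* late against early, and DESeq2 called *Mmp8* mid against early (-3.45, adjusted p = 0.00316) and *Mmp3* (1.42, adjusted p = 0.00211) and *Mmp8* (-4.31, adjusted p = 6.47e-05) late against early.

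Levels were also compared between genes after division by exon length (RPKM, the CPM per kilobase of exon). The summed RPKM of the 10 members was 802 ± 185 in veins (SD, n = 7), 424 ± 166 in early AVFs (n = 8), 875 ± 115 in mid AVFs (n = 5) and 897 ± 227 in late AVFs (n = 5). *Mmp3* made up 58.2% of this sum in veins, followed by *Mmp23* with 21.2% and *Mmp2* with 14.2%. In early AVFs *Mmp3* held 24.4%, *Mmp23* 19.7%, *Mmp14* 14.0%, *Mmp2* 10.7% and *Mmp12* 10.3%, and *Mmp8* and *Mmp9* reached 5.39% and 7.49%. In mid AVFs *Mmp2* (25.6%), *Mmp3* (23.8%) and *Mmp12* (18.4%) led, and in late AVFs *Mmp2* (31.2%) and *Mmp3* (29.7%). By mean RPKM the order in veins was *Mmp3*, *Mmp23*, *Mmp2*, *Mmp14*, *Mmp11*, *Mmp9*, *Mmp19*, *Mmp12*, *Mmp13* and *Mmp8*, and only *Mmp3* (476 ± 199 RPKM) was separated in range from its neighbour (*Mmp23*, 165 ± 61.3 RPKM). In early AVFs no neighbours in the order were separated. In mid AVFs *Mmp14* lay clear above *Mmp19*, *Mmp19* above *Mmp11* and *Mmp9* above *Mmp13*, and in late AVFs *Mmp3* lay clear above *Mmp23*, *Mmp14* above *Mmp19* and *Mmp9* above *Mmp13*.

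**Figure D4:**
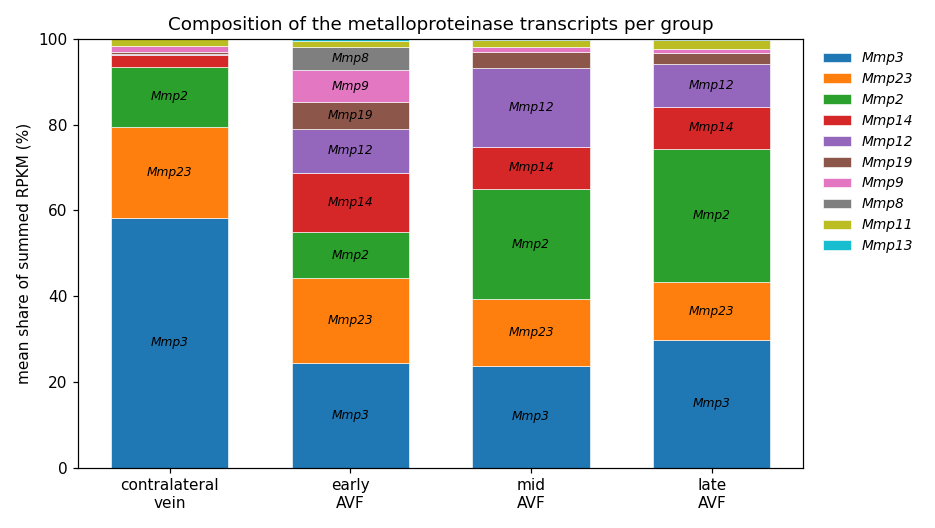
Mean share of each MMP gene in the summed RPKM of the 10 genes (percent, averaged over libraries) for contralateral veins, early, mid and late AVFs. *Mmp3* takes 58.2% of the sum in veins and 23.8% to 29.7% in AVFs, while *Mmp2* takes 31.2% in late AVFs.

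The single-cell libraries kept 6319 cells from veins, 4753 from early AVFs and 5821 from late AVFs, with a median of 2751, 8951 and 15425 unique molecular identifiers (UMIs) per cell. Of 16893 cells, 17 barcodes occurred in more than 1 library. Clustering, which used neither the MMP genes nor the marker genes, gave 21 clusters, of which 19 were named by their markers and 2 (1135 cells) were left unnamed. With 1 library per condition there is no test, and intervals below (95%, exact) cover counting error only. Fibroblast-like cells came mostly from clusters 8 and 9 in veins, from cluster 2 in early AVFs and from clusters 2 and 12 in late AVFs, and mono/macro-like cells from cluster 10 in veins and clusters 1 and 3 in AVFs, so values within a class compare different clusters. Background from free RNA was not estimated, and doublets were kept. T/NK-like cells are given as a rough stand-in for that background. Their median depth was 4426, 5545 and 6508 UMIs, against 4368, 28653 and 24979 UMIs in fibroblast-like cells.

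**Figure D5:**
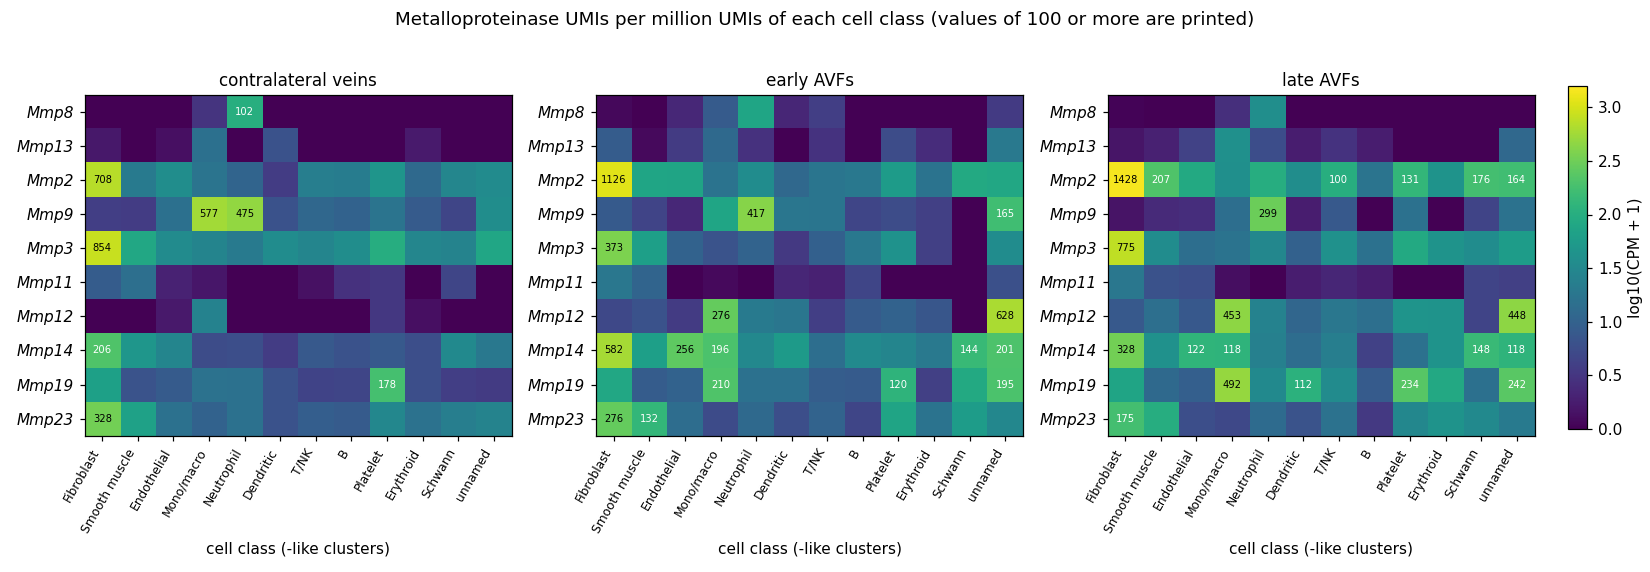
Level of each MMP gene in each cell class (CPM of the class's UMIs, color as log10(CPM + 1)) in the 3 pooled single-cell libraries, with values of 100 or more printed. *Mmp2*, *Mmp3*, *Mmp14* and *Mmp23* are highest in fibroblast-like cells, *Mmp8* in neutrophil-like cells, *Mmp12* in mono/macro-like and unnamed cells, and *Mmp19* of the AVFs in mono/macro-like, platelet-like and unnamed cells.

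More than 50% of the UMIs came from fibroblast-like cells for 6 members in veins (*Mmp2*, *Mmp3*, *Mmp11*, *Mmp14*, *Mmp19*, *Mmp23*) and for 5 of these, without *Mmp19*, in early and late AVFs, where *Mmp14* in the early library is marginal (50.3%, and 46.7% with cells of over 5% mitochondrial reads left out). Fibroblast-like cells held 44.5%, 21.5% and 51.3% of all UMIs in veins, early and late AVFs, so a share just above 50% in veins or late AVFs is close to that of an average gene. *Mmp3* measured 854 CPM (839 to 870) in fibroblast-like cells of veins, 373 CPM (362 to 384) in those of early AVFs and 775 CPM (768 to 783) in those of late AVFs. T/NK-like cells held 28.0, 8.62 and 41.0 CPM. Per UMI of fibroblast-like cells, *Mmp3* was thus also lowest in the early library. Among the 5 largest sub-clusters of this class in late AVFs, *Mmp3* ranged from 388 CPM in sub-cluster 1 (led by *Saa3*, *Hp* and *Cxcl5*) to 1267 CPM in sub-cluster 2 (led by *Saa3*, *Rrad* and *Has1*), and the sub-cluster that held 250 of the 496 early cells, number 3 (led by *Saa3*, *Thbs4* and *Cxcl5*), had 267 CPM.

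*Mmp2* was higher in the same class in each AVF library than in veins, with 708 CPM (694 to 723), 1126 CPM (1107 to 1145) and 1428 CPM (1417 to 1438), against 22.2, 16.3 and 100 CPM in T/NK-like cells. *Mmp23* was lower in the AVF libraries, with 328, 276 and 175 CPM, and in AVFs it was also present in smooth muscle-like cells at 132 and 97.4 CPM. *Mmp11* was scarce, at 7.46 CPM in fibroblast-like cells of veins and 17.5 and 17.6 CPM in those of early and late AVFs.

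*Mmp14* was shared between stroma and myeloid cells. In fibroblast-like cells it measured 206 CPM (199 to 214) in veins, 582 CPM (568.4 to 595.8) in early AVFs and 328 CPM (323 to 333) in late AVFs. Mono/macro-like cells held 4.61, 196 and 118 CPM, where T/NK-like cells held 6.89, 13.4 and 22.2 CPM. Mono/macro-like cells, which held 11.9%, 53.7% and 25.9% of all UMIs of the 3 libraries, gave 0.553% of all *Mmp14* UMIs in veins, 42.3% (41.5 to 43.1) in early AVFs and 14.7% (14.3 to 15.2) in late AVFs. Endothelial-like cells held 27.4, 256 and 122 CPM from 82, 199 and 74 UMIs.

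The class that held most *Mmp19* UMIs differed between veins and AVFs. In veins 81.5% (79.0 to 83.8) of its UMIs lay in fibroblast-like and 5.04% in mono/macro-like cells, while mono/macro-like cells gave 81.3% (80.4 to 82.2) in early and 74.0% (73.3 to 74.6) in late AVFs. Its level in fibroblast-like cells was 64.6, 82.5 and 73.1 CPM, and in mono/macro-like cells it was 15.0, 210 and 492 CPM, against 3.45, 7.66 and 33.9 CPM in T/NK-like cells. Platelet-like cells held 178, 120 and 234 CPM from 78, 26 and 16 UMIs.

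*Mmp12* was concentrated in few cells. In veins 87 of its 91 UMIs lay in 4 of 708 mono/macro-like cells, and that share of 95.6% became 56.0% at a finer clustering. In AVFs 335 of 2057 early and 406 of 1626 late mono/macro-like cells held 8264 and 11573 UMIs, or 276 CPM (270 to 282) and 453 CPM (445 to 462), against 2.87 and 17.6 CPM in T/NK-like cells. Within the class, the sub-cluster led by *Arg1*, *Spp1*, *Mmp12*, *Inhba* and *Fn1* held 17.9% of the early and 9.47% of the late cells and 83.9% and 77.1% of the class's *Mmp12* UMIs, at 1043 and 2957 CPM. It was also highest for *Mmp19* in both AVF libraries, with 469 and 1438 CPM, followed in late AVFs by sub-cluster 11 (led by *Retnla*, *Ccl17* and *Lyz1*) with 1332 CPM. An unnamed cluster of shallow cells, led by *Spp1*, *Mmp12* and *Lyz2*, held 987 further *Mmp12* UMIs in early and 440 in late AVFs.

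*Mmp13* also came mostly from few mono/macro-like cells, namely 50 UMIs in 7 cells of veins, 342 in 105 cells of early AVFs and 1007 in 96 cells of late AVFs. In early AVFs a further 90 UMIs lay in 7 of 496 fibroblast-like cells.

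Per UMI, *Mmp8* was highest in neutrophil-like cells, and in early AVFs part of its UMIs lay in mono/macro-like cells. *Mmp9* was found in both classes. *Mmp8* measured 102 CPM (63.1 to 156), 75.4 CPM (66.3 to 85.4) and 36.7 CPM (26.1 to 50.2) in neutrophil-like cells, which held 0.965%, 16.6% and 4.96% of cells. Mono/macro-like cells held 7.27 CPM in early AVFs, and within them the sub-cluster led by *Plac8*, *Ly6c2* and *Slpi* held 21.2 CPM. The lower level was spread over more RNA, as mono/macro-like cells held 53.7% of all UMIs of that library and neutrophil-like cells 5.85%. The mono/macro-like level of 7.27 CPM lay below the 8.51 CPM of that whole library. The part of free RNA in it was not tested. *Mmp9* stayed between 299 and 475 CPM in neutrophil-like cells of the 3 libraries. In mono/macro-like cells it was 577 CPM (552 to 603) in veins, 74.0 CPM (70.98 to 77.2) in early AVFs and 13.4 CPM (12.1 to 14.9) in late AVFs, and 10.7, 16.3 and 6.83 CPM in T/NK-like cells. Mono/macro-like cells gave 88.3%, 55.8% and 45.8% of all *Mmp9* UMIs in veins, early and late AVFs, and neutrophil-like cells 4.32%, 34.2% and 42.5%. In vein mono/macro-like cells *Mmp9* was led by cluster 10 (*Mrc1*, *F13a1*, *Ccl8*) with 692 CPM.

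The genes around the enzymes were read from lists chosen with earlier results known. Of all genes tested, 12.6% were called early, 6.05% mid and 5.33% late against veins, and 3.01% late against early. The median log2 fold change over all genes was -0.01 early, -0.10 mid and -0.09 late. Of 13 other MMP genes, 4 passed the filter on low counts (*Mmp15*, *Mmp16*, *Mmp17*, *Mmp27*), and *Mmp17*, which is tethered to the membrane by a lipid anchor, fell at all 3 times. It was 91.8 ± 69.3 CPM in veins (n = 7) and 5.69 ± 2.42 CPM in early AVFs (n = 8), a log2 fold change of -4.01 ± 0.48 (adjusted p = 6.42e-07), with -3.10 mid (adjusted p = 0.000365) and -2.17 late (adjusted p = 0.00729). Of the 9 that did not pass, *Mmp25*, named after its values were seen, was 0 to 0.395 CPM in veins and 1.05 to 10.8 CPM in early, 1.94 to 3.52 CPM in mid and 1.56 to 3.74 CPM in late AVFs, so every AVF lay above every vein. The median over the 4 that passed was -2.02 early, -1.43 mid and -1.48 late. Among 5 inhibitors, *Timp1* was higher and *Timp2* lower at every AVF time (early 4.55 ± 0.42, adjusted p = 1.57e-08, and -2.22 ± 0.26, adjusted p = 5.12e-07), and late against early AVFs *Timp1* was lower (-2.42) and *Timp3* higher (2.70). *Timp2*, besides being an inhibitor, links *Mmp14* to the proenzyme of *Mmp2*.

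Of 11 genes of proenzyme activation and the plasminogen system, 6 were tested and 3 were called early. *Plaur*, the urokinase receptor, rose by 2.23 ± 0.39 (adjusted p = 0.00014) and *Furin*, a proprotein convertase, by 1.85 ± 0.49 (adjusted p = 0.00736), while *Pcsk5*, another convertase, was lower (-1.87 ± 0.43, adjusted p = 0.00213). None was called mid, and *Serpine2* was higher late (2.51 ± 0.50, adjusted p = 0.00135). The median over the 6 was 0.34, 0.84 and 0.69. Of 4 docking and clearance genes, *Cd44*, a surface receptor that can hold *Mmp9*, was higher early (2.57 ± 0.47, adjusted p = 0.000225) and mid (2.17), *Mrc2*, a collagen uptake receptor, mid (1.95) and late (1.89), and *Lrp1*, a clearance receptor for MMPs, late (1.20 ± 0.29, adjusted p = 0.00762).

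Of 10 substrate genes, all tested, 2 were higher and 1 lower early, 3 higher and 1 lower mid and 4 higher late, with median log2 fold changes of 0.43, 1.71 and 1.87. Fibronectin (*Fn1*) was higher at all 3 times (1.30, 2.30 and 2.41), versican (*Vcan*) early (2.64 ± 0.64, adjusted p = 0.00354), and elastin (*Eln*) and *Col4a1* mid (2.18 and 1.80) and late (2.11 and 2.30), while decorin (*Dcn*) was lower early (-2.71 ± 0.32, adjusted p = 5.44e-07) and mid (-1.53). Of 11 inducing cytokines and transcription factors, 10 were tested, and 4 were higher early, 3 mid and 2 late. Of these 10, 5 (*Il1a*, *Tnf*, *Il6*, *Osm*, *Runx2*) passed the filter on low counts only through the AVFs, so the counts are in part fixed by the filter. *Il1a* had no read in any vein and was at least 391-fold higher early (6.93 ± 5.51 CPM, n = 8), *Tnf* was higher by 6.59 ± 1.19 (adjusted p = 0.000187), *Osm* by 5.32 ± 1.14 (adjusted p = 0.0012) and *Il1b* by 4.05 ± 1.07 (adjusted p = 0.00651). None of the 5 transcription factor genes tested (*Fos*, *Jun*, *Junb*, *Ets1*, *Runx2*) was called at any time.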

How the data were processed

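Bulk RNA was measured in 25 libraries and single cells in 3. The authors deposited raw gene counts for the bulk libraries (paired reads of poly(A) RNA) and raw UMI counts per gene and barcode for the single-cell libraries, made with Cell Ranger 6.0.2 per the file headers. Per the labels, Cell Ranger, STAR and the builds mm10 and GRCm38 were used, with no role given. The counter and annotation behind the bulk counts: not given in the sources used here. Groups came from the labels, and 0 columns were unused. The study allocated as many mice as there are bulk libraries, but no label ties a vessel to a mouse, so p-values measure the spread between these libraries.

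Of 56980 identifiers, 32210 were named from the single-cell gene table, 19962 from a reference gene table and 4808 stayed unnamed. The 12673 genes whose mean normalized count was at least 100 were tested with edgeR 4.0.16 (quasi-likelihood test, TMM, Benjamini-Hochberg) in R 4.3.3, with all 25 libraries in 1 fit that was tested on simulated data. DEGs passed an adjusted p under 0.01 and a log2 fold change of at least 1. Standard errors were computed as the absolute log2 fold change divided by the square root of the test's F statistic. The 95% intervals of fold changes took a t distribution on them, so both are approximate. DESeq2 1.42.0 was an alternative. RPKM used the exon length of GENCODE M21. Named genes were the 10 members and the called genes of the lists, and members and lists were chosen with earlier results of these data known. 1 list gene is not reported here and was left out of its list's counts and medians.

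Cells with 200 to 6000 genes and at most 10% mitochondrial UMIs were kept (16893 of 26438 barcodes). They were clustered on 2000 variable genes, 12 principal components and 20 neighbors (scikit-learn 1.9.0) with leidenalg 0.10.2 (Leiden, resolution 0.5). Scrublet in scanpy 1.11.5 called 0, 2 and 113 doublets in veins, early and late AVFs, so it did not work for the first 2 libraries, and doublets were kept. Poisson intervals for UMIs and exact binomial intervals for shares are at 95%.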

Additional observations from a re-analysis of the deposited data

Results flagged for a closer look

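Among 40 tests of a single library against the rest of its group, of which chance flags about 1 in 20, 3 levels stood apart. *Mmp8* was 0.712 CPM in contralateral vein 27 and 0 in the other 6 veins. *Mmp13* was 0.176 CPM in early AVF 5, where the next lowest early AVF held 2.34 CPM and the highest 10.9 CPM. *Mmp14* was 5.56 CPM in contralateral vein 28, where the next lowest vein held 61.3 CPM and the highest 179 CPM.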

How the results depend on the processing

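No paired analysis was possible because the groups share no replicate numbers. Of 60 log2 fold changes (10 members, 6 comparisons), 60 kept direction and call with DESeq2 size factors in edgeR, 59 without a filter on low counts and 59 with filterByExpr, 58 with sex as a covariate, 56 with the likelihood ratio test, 55 with DESeq2 and 57 with early AVFs 5, 6 and 7 left out, the last chosen after seeing the data. Mid against early the number of members called went from 0 to 1 with DESeq2, and late against early from 0 to 2 with DESeq2 and with the likelihood ratio test. *Mmp19* was also called mid with DESeq2, the likelihood ratio test, filterByExpr and no filter (adjusted p 0.000755 to 0.00744), and late with DESeq2 (0.00509) and the likelihood ratio test (0.00816). *Mmp23* late against early turned from 0.45 to -0.022 without early AVFs 5, 6 and 7. With 1 library left out, the number of members called ranged from 4 to 5 early, 4 to 5 mid, 1 to 5 late, 0 to 0 mid against early, 0 to 2 late against early (2 without vein 27, 1 without vein 28, vein 31 or early AVF 2) and 0 to 0 late against mid. Values near 0 changed sign in some of these fits, with *Mmp9* mid from -0.28 to 0.26, *Mmp11* mid from -0.32 to 0.58, *Mmp19* late against early from -0.25 to 0.11 and *Mmp14* late against mid from -0.20 to 0.088. The cause was not tested. Of all genes, 1599, 767 and 676 were called early, mid and late in the reported fit, 2440, 1418 and 1294 with DESeq2, 2166, 1158 and 1044 with the likelihood ratio test, 3803, 2823 and 2696 with filterByExpr, 3938, 2728 and 2567 with no filter and 970, 856 and 771 without early AVFs 5, 6 and 7. Mid against early it was 1 in the reported fit, 474 with DESeq2 and 356 with the likelihood ratio test, and late against early 381, 753 and 625, with 259 for filterByExpr, 208 for no filter and 35 without early AVFs 5, 6 and 7. Of 30 single-cell shares, 4 moved at resolution 1.0, 6 without called doublets and 18 at 5% mitochondrial UMIs, by up to 39.6, 10.2 and 38.9 percentage points.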

Other observations

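The difference between male and female AVFs in their change from contralateral veins was fitted for each member, and none passed an adjusted p of 0.05 in edgeR's quasi-likelihood test. The lowest adjusted p was 0.359, for *Mmp12* early, where the change in males was lower by 3.67 on the log2 scale. Before adjustment, *Mmp12* passed 0.05 at all 3 times and *Mmp8* early and mid. The fit has few males among the veins (2 of 7), and all but 1 vein hold no *Mmp8* read. For *Mmp12* the male veins 632 and 633 held 25.3 and 0 CPM, and the female veins 0.136 to 2.33 CPM. The male level in veins thus rests on vein 632.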
